A study of Mus musculus with 20 samples.

Results

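Ifitm1 encodes interferon-induced transmembrane protein 1 and was 1 of the 770 mouse genes measured by nCounter hybridization in 20 MMC tumours. It was chosen by its rise in anti-rHER2 ISAC tumours over isotype antibody tumours, the highest among the genes listed here as interferon-linked. Its levels in these 2 groups are therefore given as a description, with no test. MMC is a HER2/neu-expressing mammary tumour line, implanted subcutaneously into animals, aged 6 to 8 weeks, of the FVB/N-TgN(MMTV-Erbb2)NK1Mul/J line, in which the MMTV promoter drives an Erbb2 transgene. Every mouse carried a tumour of 200 to 500 mm3 at the start, received 5 mg/kg intraperitoneally and gave its tumour on day 1. The 20 tumour samples fell into 4 groups of 5, and the labels do not name the mice. Mice were given the antibody labelled Isotype Control or the same kind of antibody carrying T785 (the isotype ISAC). Others were given the antibody anti-rHER2 or anti-rHER2 carrying T785 (the anti-rHER2 ISAC). An ISAC is an immune-stimulating antibody conjugate, and T785 activates TLR7 and TLR8, receptors for RNA inside endosomes. All tumours come from 1 cell line, and no group was left untreated.

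IFITM proteins are small membrane proteins that hinder the fusion of enveloped viruses with cell membranes, and several are induced by type I and type II interferons. Signals from interferon receptors reach DNA at the interferon-stimulated response element (ISRE) or, for interferon-gamma, at the interferon-gamma activated site (GAS). In mouse tissue Ifitm genes are also transcribed in cells that have met no virus, among them leukocytes. Ifitm1 lies on chromosome 7 in a cluster of the family, between Ifitm2 and Ifitm3 in the RefSeq gene order of GRCm38.p6. Of the 7 family members looked for, 2 were measured, Ifitm1 and Ifitm2. Probe sequences are not given in these sources, so whether the Ifitm1 probe also binds transcripts of near-identical family members was not tested, and its signal may include them.

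The 250 bases before a RefSeq start of Ifitm1 and of Ifitm2 (GRCm38.p6) are shown because these neighbours behaved differently in the tumours, followed by stretches of 3 classical interferon-stimulated genes. Capitals mark matches to an ISRE-type motif, GAAANNGAAA, which reads TTTCNNTTTC on the opposite strand. Ifitm1 is at chr7:140967826-140968075 on the plus strand, Ifitm2 at chr7:140955962-140956211 on the minus strand, Ifit1 at chr19:34640773-34640825 on the plus strand, Ifit3 at chr19:34583361-34583428 on the plus strand and Isg15 at chr4:156200863-156200908 on the minus strand.
Ifitm1: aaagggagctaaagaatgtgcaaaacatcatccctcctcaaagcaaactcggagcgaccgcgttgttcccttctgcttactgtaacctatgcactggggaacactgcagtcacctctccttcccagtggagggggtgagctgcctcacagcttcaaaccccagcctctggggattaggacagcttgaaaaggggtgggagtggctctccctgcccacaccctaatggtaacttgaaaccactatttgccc
Ifitm2: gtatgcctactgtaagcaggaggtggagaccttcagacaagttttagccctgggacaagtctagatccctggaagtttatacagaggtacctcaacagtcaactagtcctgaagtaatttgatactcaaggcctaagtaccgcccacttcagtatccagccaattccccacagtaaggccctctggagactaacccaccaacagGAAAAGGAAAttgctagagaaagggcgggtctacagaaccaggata
Ifit1: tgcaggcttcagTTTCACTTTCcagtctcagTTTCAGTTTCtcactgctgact
Ifit3: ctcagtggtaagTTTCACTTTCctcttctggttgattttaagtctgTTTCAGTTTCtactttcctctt
Isg15: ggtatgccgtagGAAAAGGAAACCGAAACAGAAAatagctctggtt
In windows from 250 bases before to 50 bases after a start, 3.44% of all 32851 windows held the ISRE-type letters on either strand. The Ifitm2 window held 1 match, 46 bases before the start, and the Ifitm1 window held none. The windows of Ifit1 and Ifit3 held 2 matches each, and the capitals of Isg15 are overlapping matches. Of the 27 type I interferon-stimulated genes described below, 19 had a window and 9 of these held a match, while Oasl1, the gene of that list with the largest rise, held none. Of the 13 neutrophil genes, 12 had a window and 0 held a match. A GAS-type motif, TTCNNNGAA, was in 8.3% of all windows and in neither Ifitm window. The annotated gene of Ifitm1 starts upstream of the window shown, and the starts of its other transcripts were not searched. A match is a run of letters and no measured binding.

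Across the panel the total per tumour was 271793 to 508433 recovered counts. The epithelial marker Epcam had a mean signal of 6212.9 in isotype antibody tumours and 5326.6 in anti-rHER2 ISAC tumours, and Erbb2 had means between 1353.5 and 1930.5 in the 4 groups. The median signal of all 770 genes rose with treatment, from 56.44 ± 5.68 (SD, n = 5) in isotype antibody tumours to 93.51 ± 11.63 in anti-rHER2 ISAC tumours. The median log2 difference over all genes between these groups was 0.36 as deposited and became -0.30 with equal medians, -0.02 after scaling by median ratios and -0.09 after quantile normalization. Of the genes called between these groups, 89.5% were higher as deposited, 24.9% with equal medians, 52.0% after scaling by median ratios and 41.7% after quantile normalization. Counts of called genes against the isotype antibody are to be read beside the panel's own shares. For the anti-rHER2 ISAC these were 39.9% called higher and 4.68% called lower as deposited, and with equal medians 11.9% and 36.0%. The tumours were bulk tissue, in which fewer cells of a type and less RNA per cell cannot be told apart.

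Ifitm1 was faint in tumours of isotype antibody mice. Its normalized signal was 21.64, 11.5, 25.92, 21.27 and 21.36 in tumours 1 to 5, a mean of 20.3 ± 5.31 (SD, n = 5). These signals stand on 12 to 23 counts per tumour, and counting error alone gives an SD of 4.71, close to the SD found.
In isotype ISAC tumours the signal was 23.92, 34.06, 17.1, 42.57 and 20.8, a mean of 27.7 ± 10.4. In anti-rHER2 tumours it was 53.96, 38.72, 28.07, 36.49 and 47.76, a mean of 41.0 ± 10.1. In anti-rHER2 ISAC tumours it was 159.11, 101.03, 228.02, 135.7 and 181.51, a mean of 161.1 ± 47.8, on 118 to 221 counts.
Every anti-rHER2 ISAC tumour lay above all 15 other tumours. Every anti-rHER2 tumour lay above every isotype antibody tumour, although by little, since the lowest of the former had 28.07 and the highest of the latter 25.92. The isotype ISAC tumours overlapped both the isotype antibody and the anti-rHER2 tumours. Within anti-rHER2 ISAC tumours, tumour 3 was highest and tumour 2 lowest, and counting error alone would give an SD of 12.5, under the 47.8 found.

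**Figure D1:**
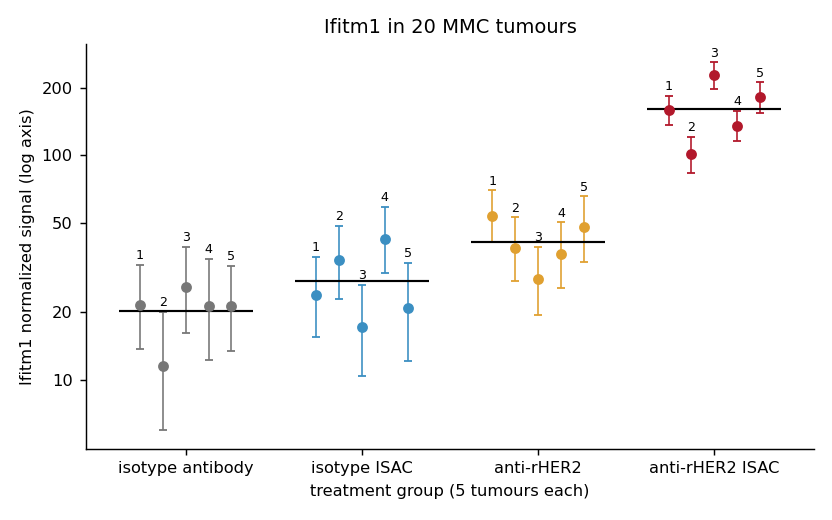
Normalized signal of Ifitm1 (log axis) in each of 20 tumours by treatment group, with tumour numbers; bars are 95% exact Poisson intervals for counting error only and lines are group means. The 5 anti-rHER2 ISAC tumours lie between 101.03 and 228.02, above every tumour of the other groups.

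On the log2(signal + 1) scale, which understates changes of faint genes, the anti-rHER2 ISAC mean stood 2.92 ± 0.26 (SE of the fit over all genes) above the isotype antibody mean, a ratio of mean signals of 7.92. This was the eighth largest difference of the panel, and it is the difference by which the gene was chosen. Over anti-rHER2 the difference was 1.93 ± 0.26, a ratio of 3.93, and over the isotype ISAC it was 2.52 ± 0.26, a ratio of 5.82. The difference between anti-rHER2 and the isotype antibody was 0.99 ± 0.26, a ratio of 2.02. The difference between the isotype ISAC and the isotype antibody was 0.40 ± 0.26, a ratio of 1.36. The anti-rHER2 ISAC difference exceeded the sum of the antibody's and the untargeted conjugate's own differences by 1.53 ± 0.37 on the log2 scale. All of these share the isotype antibody or anti-rHER2 ISAC tumours, so none carries a test here. No overlap in the same direction was shown by 28.6% of the panel for anti-rHER2 ISAC over isotype antibody, 12.5% over anti-rHER2, 24.7% over the isotype ISAC, and 9.22% for anti-rHER2 over isotype antibody.

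The comparison of anti-rHER2 with the isotype ISAC uses neither of the groups that gave the choice. Ifitm1 was higher in anti-rHER2 tumours by 0.59 ± 0.26 on the log2 scale, a ratio of 1.48, which did not pass the threshold (limma adjusted p = 0.187 over 770 genes; 2-sided exact permutation p = 0.0714). The isotype ISAC was not tested against the isotype antibody, its other neighbour in the order of group means. For anti-rHER2 against the isotype ISAC the unadjusted limma p was 0.0382, and with 5 tumours per group a difference is not excluded. In the same comparison 3 of 13 neutrophil genes were called higher and 0 lower in limma, beside 39 of 770 genes higher and 5 lower. Their median difference was 0.3 and the lowest was -0.18. Among the called were S100a8, higher by 1.79 ± 0.30 (limma adjusted p = 0.002), and Cxcr2, by 2.57 ± 0.36 (limma adjusted p = 4.7e-04). Fpr2, at 0.85 ± 0.27, did not pass (limma adjusted p = 0.0714).

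Ifitm2, the neighbouring family member, was abundant and nearly level. Its mean signal was 4112.4 ± 272.5 in isotype antibody, 4069.5 ± 434.6 in isotype ISAC, 3793.1 ± 220.5 in anti-rHER2 and 3887.9 ± 266.9 in anti-rHER2 ISAC tumours. The 4 groups overlapped, with all 20 values between 3588.22 and 4708.61. The anti-rHER2 ISAC minus isotype antibody difference was -0.08 ± 0.09 on the log2 scale (limma adjusted p = 0.492). In this comparison no scaling tried put Ifitm2 higher. It fell by 0.81 with equal medians (adjusted p = 4.7e-05), by 0.49 with scaling by median ratios (adjusted p = 9.7e-04) and by 0.18, not passing, with quantile normalization (adjusted p = 0.186).

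The interferons themselves were near the floor. The 6 ligand genes measured reached at most a signal of 17.75 in any tumour. Ifnb1, the first type I interferon made after sensing of nucleic acid, had a mean of 2.49 ± 0.982 in isotype antibody and 1.87 ± 0.992 in anti-rHER2 ISAC tumours (adjusted p = 0.529). Ifng, the type II interferon of NK and T cells, went from 2.46 ± 0.976 to 6.55 ± 2.63, a log2 rise of 1.09 ± 0.33 (adjusted p = 0.012) on very few counts, and the call held in 1 of 3 other scalings. Ifnl2, an interferon lambda, went from 1.52 ± 0.601 to 4.20 ± 1.38 (log2 1.03 ± 0.29, adjusted p = 0.00641, held in 2 of 3 scalings). Against anti-rHER2 tumours, where its mean was 5.28 ± 2.12, Ifnb1 was lower in anti-rHER2 ISAC tumours by a log2 difference of -1.11 ± 0.36 (adjusted p = 0.0333). Among receptor chains, Ifngr1 had means of 425.4 and 552.5 (log2 0.36 ± 0.11, adjusted p = 0.012) and Ifnar2 of 345.7 and 428.0 (log2 0.29 ± 0.11, adjusted p = 0.0411). Both differences are near the 0.36 of the median gene, and both lost the call and turned in sign under each of 3 other scalings.

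Listed interferon-stimulated genes rose with the anti-rHER2 ISAC, each by less than Ifitm1, which was chosen for the largest rise among them. Against the isotype antibody, 22 of 27 type I interferon-stimulated genes were called higher and 0 lower (limma, adjusted p below 0.05), with a median log2 difference of 0.91, beside 39.9% of the panel called higher, 4.68% called lower and a panel median of 0.36. With equal medians 4 were called higher and 2 lower, with a median of 0.19, beside 11.9% and 36.0% of the panel. Median-ratio scaling gave 13 higher and 1 lower, beside 20.1% and 18.6%.
Oasl1, a relative of the RNA-sensing oligoadenylate synthetases, rose most, from 36.3 ± 9.55 to 114.6 ± 24.7 (log2 1.64 ± 0.23, adjusted p = 1.2e-05). Its signals were 33.87, 26.82, 38.89, 30.58 and 51.45 in isotype antibody tumours, 73.49, 26.81, 58.61, 53.26 and 45.18 in anti-rHER2 tumours and 141.73, 80.48, 124.85, 98.39 and 127.73 in anti-rHER2 ISAC tumours. The anti-rHER2 ISAC tumours lay above the rest, and anti-rHER2 tumour 2, in which Ifitm1 had 38.72, was level with the lowest isotype antibody tumour. Irf7, the transcription factor that amplifies type I interferon, rose from 266.4 ± 79.4 to 666.9 ± 188.5 (log2 1.33 ± 0.26). Ifit3, which blocks translation of foreign RNA with Ifit1, rose from 455.8 ± 152.7 to 1104.6 ± 297.3 (log2 1.31 ± 0.31). Within the anti-rHER2 ISAC group Oasl1, Irf7 and Ifit3 were highest in tumour 1, where Ifitm1 was highest in tumour 3.
Isg15, a ubiquitin-like modifier, rose by 1.16 ± 0.26 and Bst2, which tethers budding virus, by 0.65 ± 0.15. The call of Isg15, like that of Ifit3, held in 2 of 3 other scalings, and that of Bst2 in 1, with its sign kept in 2. Mx1, a GTPase against influenza virus, stayed at the floor with means from 1.35 to 2.7.

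Of 18 interferon-gamma response genes, 11 were called higher and 1 lower against the isotype antibody, beside 39.9% and 4.68% of the panel, with a median of 0.84. With equal medians 3 were higher and 4 lower, beside 11.9% and 36.0% of the panel, with a median of 0.11. Cxcl9, a chemokine for T cells, rose from 74.2 ± 28.8 to 431.2 ± 198.3 (log2 2.49 ± 0.38, adjusted p = 3.2e-05), the nearest to Ifitm1 on the interferon lists. Cd274, which encodes PD-L1, rose from 41.6 ± 10.7 to 211.6 ± 48.5 (log2 2.32 ± 0.30, adjusted p = 5.4e-06). Irf1, a transcription factor induced early by interferon-gamma, had a log2 difference of 0.21 ± 0.15 (adjusted p = 0.286).
Ifitm1 ranked above all 45 genes of both interferon lists in anti-rHER2 ISAC tumours against the isotype antibody and against anti-rHER2, under each of 29 settings. Against the isotype ISAC it ranked above them in 27 of the 29, the exceptions being a pseudocount of 10 and the fit without isotype ISAC tumour 3. The ranks hold for the 2 lists as drawn. The chemokine Ccl5, on neither list, rose by 3.97 ± 0.28 against the isotype antibody (limma adjusted p = 2.7e-09), more than Ifitm1. Ifitm1 was chosen for its first rank against the isotype antibody. The other comparisons share the anti-rHER2 ISAC tumours and the settings share the same data, so these ranks are a description and support nothing.

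**Figure D2:**
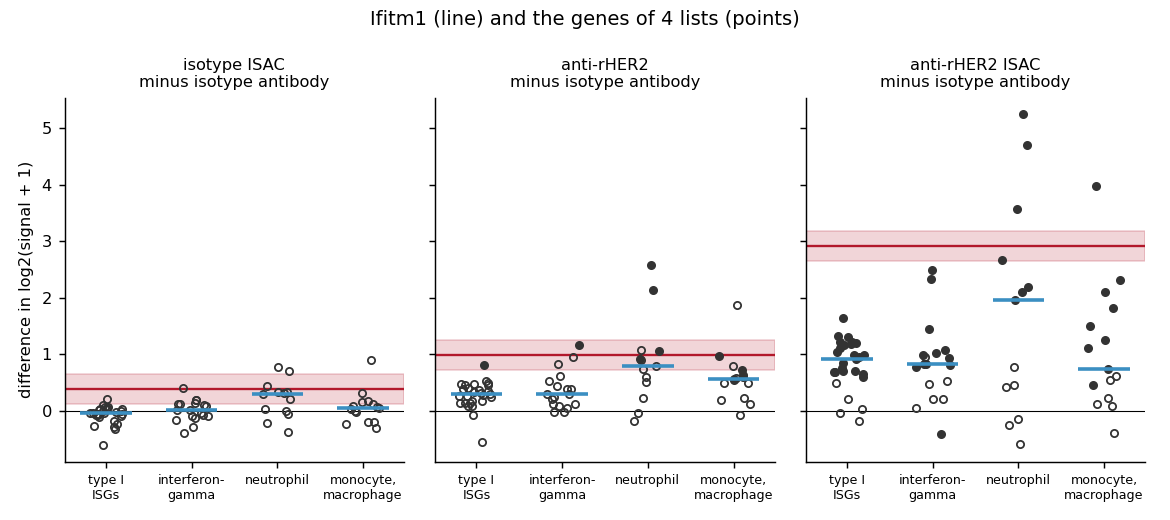
Differences in log2(signal + 1) from the isotype antibody group for Ifitm1 (red line, band of 1 SE, no test) and for the measured genes of 4 lists (points, filled where the limma adjusted p is below 0.05; blue bars are list medians); the 3 panels share the isotype antibody tumours. In the anti-rHER2 ISAC panel no interferon gene reaches the 2.92 of Ifitm1, which was chosen for this, while 3 neutrophil genes and 1 monocyte gene exceed it.

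Among neutrophil genes, S100a8, Cxcr2 and Fpr2 had larger differences than Ifitm1, and the other 10 of 13 measured had smaller ones. Of the 13, 7 were called higher and 0 lower against the isotype antibody, beside 39.9% and 4.68% of the panel, with a median of 1.96. With equal medians 7 were called higher and 1 lower, beside 11.9% and 36.0%, with a median of 1.26. S100a8, a calcium-binding protein abundant in neutrophils, had signals of 41.4, 22.03, 25.92, 37.22 and 25.24 in isotype antibody tumours and of 1335.03, 574.5, 1782.91, 1348.56 and 1084.59 in anti-rHER2 ISAC tumours (log2 5.24 ± 0.30, adjusted p = 4.2e-10). Like Ifitm1 it was highest in anti-rHER2 ISAC tumour 3 and lowest in tumour 2, as were 24 of the 78 named genes in all. Tumour 3 also had the highest median signal of its group, 105.76, and tumour 2 the lowest, 75.77.
Cxcr2, the receptor that draws neutrophils to chemokines, went from 3.74 ± 2.4 to 113.3 ± 35.1 (log2 4.70 ± 0.36) and Fpr2, a formyl peptide receptor, from 8.02 ± 2.03 to 105.9 ± 26.2 (log2 3.56 ± 0.27). Csf3r, the G-CSF receptor, rose from 19.3 ± 3.56 to 134.0 ± 43.8 (log2 2.67 ± 0.27). The summed signal of the 13 genes was 85.4 to 114.4 in isotype antibody, 105.3 to 127.2 in isotype ISAC, 168.1 to 348.5 in anti-rHER2 and 884.0 to 2422.6 in anti-rHER2 ISAC tumours. The granule genes Camp, Ltf, Mpo, Elane and Ctsg, made mostly by neutrophil precursors, reached no more than 11.84 in any tumour. Whether neutrophil number has a part in the level of Ifitm1 was not tested.

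Monocyte and macrophage genes were mixed. Of 15, 9 were called higher and 0 lower against the isotype antibody, beside 39.9% and 4.68% of the panel, with a median of 0.73. With equal medians the median was 0.01, and 5 were higher and 4 lower, beside 11.9% and 36.0%. Chil3, a secreted protein of monocytes and alternatively activated macrophages, rose from 9.19 ± 6.78 to 142.3 ± 76.3 (log2 3.98 ± 0.73, adjusted p = 2.3e-04), the only gene of this list above Ifitm1. Fcgr4, an activating receptor for IgG on monocytes and neutrophils, rose from 129.9 ± 15.9 to 653.2 ± 126.5 (log2 2.31 ± 0.15, adjusted p = 1.1e-09).
Cd14 had means of 477.5 and 511.7 (adjusted p = 0.751), and Csf1r, the receptor for macrophage growth factor, 579.4 and 682.9 (adjusted p = 0.2). The summed signal of the 15 genes was 3756.2 to 6332.6 in isotype antibody and 5454.8 to 8258.0 in anti-rHER2 ISAC tumours, so these ranges overlapped. Of 9 genes shared by neutrophils and monocytes, 8 were called higher and 0 lower with a median of 2.00, beside the same 39.9% and 4.68%, and with equal medians 6 were higher and 1 lower, beside 11.9% and 36.0%.

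The comparisons with the other groups share the anti-rHER2 ISAC tumours with the first. Over anti-rHER2, 12 of 27 type I interferon-stimulated genes, 4 of 18 interferon-gamma genes, 7 of 13 neutrophil genes and 6 of 15 monocyte genes were called higher, beside 19.6% of the panel higher and 2.99% lower. Among them 1 interferon-gamma gene and 2 monocyte genes were called lower. The list medians were 0.54, 0.51, 1.02 and 0.24, the difference of Ifitm1 was 1.93, and with equal medians the monocyte median turned to -0.20 and the panel had 7.9% higher and 24.4% lower.
Over the isotype ISAC, 22, 9, 7 and 10 members of the same lists were called higher and 0 lower, beside 36% of the panel higher and 3.9% lower. The list medians there were 0.95, 0.78, 1.48 and 0.92, and the difference of Ifitm1 was 2.52. In anti-rHER2 tumours over isotype antibody, 1, 1, 4 and 4 members were called higher and 0 lower, beside 8.83% of the panel higher and 0.26% lower. The medians were 0.30, 0.30, 0.79 and 0.57, and the difference of Ifitm1 was 0.99. The 2 interferon genes were Siglec1, a macrophage lectin induced by interferon (78.6 ± 19.9 to 138.9 ± 40.3, log2 0.81 ± 0.20, adjusted p = 0.021), and Cd274 (log2 1.16 ± 0.30, adjusted p = 0.0248). The call of Siglec1 held in 1 and that of Cd274 in 2 of 3 other scalings.
Between the isotype ISAC and the isotype antibody 0% of the panel was called in either direction by limma, where 47 genes had an unadjusted p below 0.05 and edgeR on recovered counts called 0. The Ifitm1 difference of 0.40 there lies within the overlap of the tumours.

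Over all 20 tumours the single genes most like Ifitm1 included neutrophil and shared myeloid genes. By list, only the shared myeloid median stood above that of the type I interferon-stimulated genes, as given below. The correlations here are descriptions over tumours that share their group means and have no p. Among 532 genes of mean signal at least 20, the highest Pearson r of log2(signal + 1) was with S100a8 (0.969), followed by Fcer1g (0.967), the signalling chain of activating Fc receptors, Fpr2 (0.965) and the cholesterol transporter Abcg1 (0.963). Also among the 10 highest were the kinase Lyn (0.951), the integrin chain Itgam (0.942), the chemokine Ccl5 (0.939), the phagosomal metal transporter Slc11a1 (0.932) and the integrin chain Itgb2 (0.931). None of the 10 is on either interferon list as drawn here, and Fpr2 passed the signal limit only through the anti-rHER2 ISAC tumours. With median-ratio scaling the top 10 held the same genes, and with equal medians or quantile normalization it shared 9 of them.
The lowest r was with C1qbp (-0.783), a mitochondrial protein, and Cd9 (-0.762), a tetraspanin. Between isotype antibody and anti-rHER2 ISAC tumours, C1qbp fell from 1136.4 ± 56.3 to 900.9 ± 30.5 (limma adjusted p = 0.00176) and Cd9 from 3426.6 ± 227.9 to 2677.4 ± 322.0 (limma adjusted p = 0.00447).

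**Figure D3:**
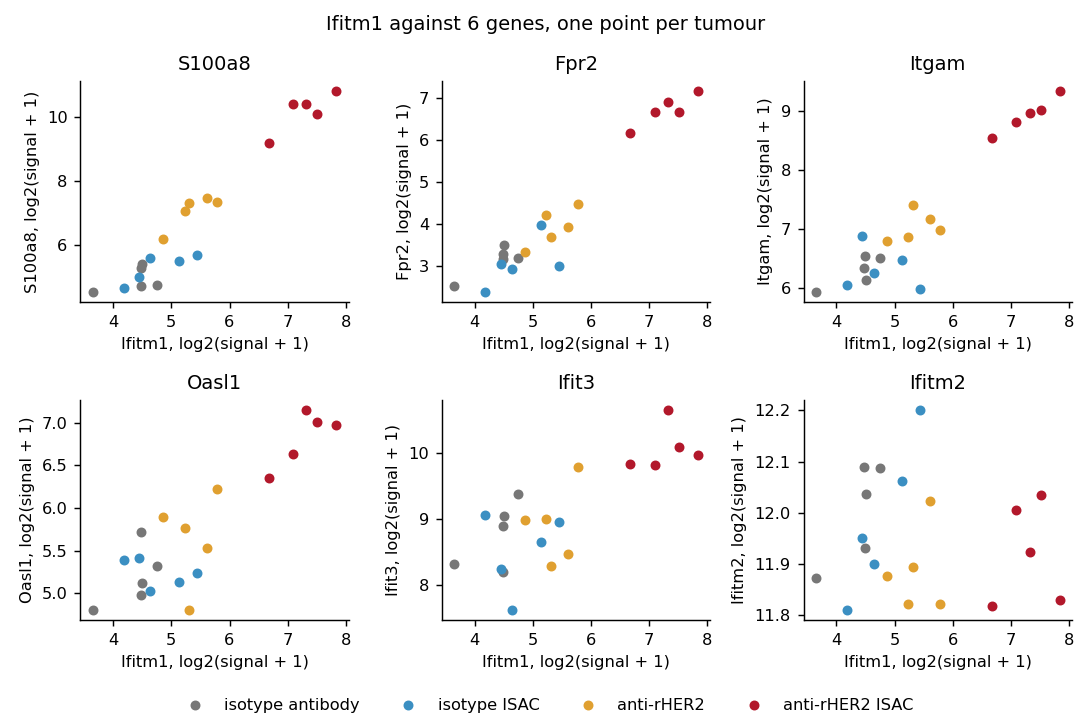
Log2(signal + 1) of Ifitm1 (x axis) against that of 6 genes (y axes), 1 point per tumour, coloured by treatment group. S100a8, Fpr2, Itgam, Oasl1 and Ifit3 are highest in anti-rHER2 ISAC tumours, and all but S100a8 have anti-rHER2 tumours that overlap isotype ISAC tumours. Ifitm2 stays between 3588.22 and 4708.61 in signal.

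By list, the median r over the 20 tumours was 0.92 for 9 shared myeloid genes, 0.77 for 27 type I interferon-stimulated genes, 0.75 for 13 neutrophil genes, 0.66 for 18 interferon-gamma genes and 0.55 for 15 monocyte genes, beside 0.39 for all 769 other genes. With equal medians these became 0.85, 0.19, 0.60, 0.19 and 0.09, beside -0.30. The best type I gene was Oasl1, with r = 0.885 at rank 44 of 532, and the best interferon-gamma gene was Tapbp at rank 36, named here after its value was seen. The r of Ifitm2 was -0.06. The 50 genes most like Ifitm1, of 532 of mean signal at least 20, held 5 of 9 shared myeloid, 4 of 5 neutrophil and 4 of 14 monocyte genes. They held 2 of 17 interferon-gamma genes, near the share of 50 in 532, and 1 of 24 type I interferon-stimulated genes. Some of the neutrophil genes passed the signal limit only through the anti-rHER2 ISAC tumours.

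**Figure D4:**
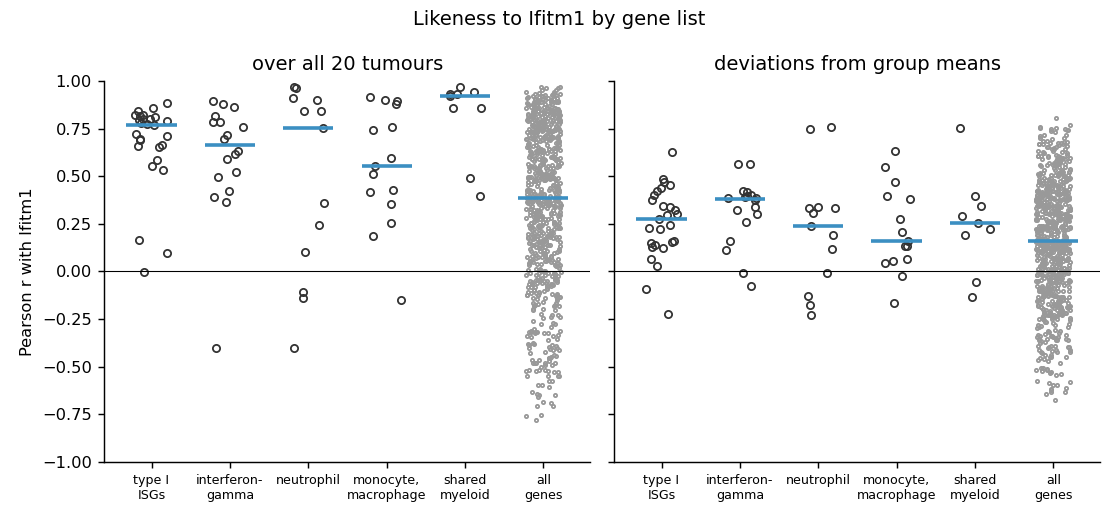
Pearson r with Ifitm1 for each gene of 5 lists and for all 769 other genes, over all 20 tumours (left) and over deviations from group means (right); blue bars are medians. On the left the shared myeloid median is 0.92 and the panel median 0.39, and on the right all list medians lie between 0.16 and 0.38.

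Deviations from group means carry none of the difference by which Ifitm1 was chosen. Among the 532 genes of mean signal at least 20, the highest r over these was with Itga1 (0.769), an integrin chain for collagen. Next were S100a8 (0.758), the transcription factor Ikzf2 (0.753), Fcer1g (0.751) and Fpr2 (0.75). They were followed by the costimulatory ligand Cd86 (0.746), Klra2 (0.744), the lipopolysaccharide receptor Tlr4 (0.739), Relb (0.73) and Flt3l (0.714). The lowest among the same 532 genes were Tbp (-0.645), Smad3 (-0.636) and Sh2b2 (-0.632). S100a8, Fcer1g and Fpr2 are thus among the 10 highest by both measures, as a description. Fpr2 passed the signal limit only through anti-rHER2 ISAC tumours, where its mean was 105.9. Its means in isotype antibody, isotype ISAC and anti-rHER2 tumours were 8.02, 8.03 and 14.9. Itga1 is not, since its mean fell from 666.1 to 487.9 between isotype antibody and anti-rHER2 ISAC tumours.
In a limma fit of each gene on group and Ifitm1, 1 of 769 genes was called with a positive slope, which is 0.13%, and 0 with a negative slope, while 135 had an unadjusted p below 0.05. The called gene was Arg2, a mitochondrial arginase, with a slope of 0.80 ± 0.15 (adjusted p = 0.0387), named after its value was seen and at a mean signal of 9.04. Its r of 0.808 lay above that of Itga1, but its low signal kept it out of the ranking. The slopes of S100a8 (0.86 ± 0.19, adjusted p = 0.0589), Fpr2 (0.77 ± 0.17, adjusted p = 0.0589) and Fcer1g (0.37 ± 0.09, adjusted p = 0.0677) did not pass. Leaving out isotype ISAC tumour 3, 4 or 5 or anti-rHER2 tumour 2 raised the count to 15, 7, 3 and 3, and leaving out genes of low mean signal raised it to 15. The count fell to 0 with equal medians, scaling by median ratios, quantile normalization or a pseudocount of 10. It also fell to 0 without isotype antibody tumour 2, 3 or 4, isotype ISAC tumour 2, anti-rHER2 tumour 1, 3 or 4, or anti-rHER2 ISAC tumour 2, 3, 4 or 5.

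No list score followed Ifitm1 within groups beyond the threshold. The score of a list is its mean log2(signal + 1), and p-values come from 100000 permutations of tumours within groups, adjusted over 4 lists. Pearson's r was 0.33 for type I interferon-stimulated genes (p = 0.183), 0.40 for interferon-gamma genes (p = 0.111), 0.40 for neutrophil genes (p = 0.0759) and 0.32 for monocyte genes (p = 0.187), and the adjusted permutation p was 0.187 for each. Spearman's rho was 0.29, 0.50, 0.34 and 0.31, with permutation p of 0.247, 0.0395, 0.165 and 0.209 and adjusted p of 0.247, 0.158, 0.247 and 0.247. Without isotype antibody tumour 2 and anti-rHER2 ISAC tumour 2, the tumours farthest from the median, r was 0.15, 0.26, 0.24 and -0.09.
Anti-rHER2 ISAC tumour 2 also had the lowest median signal of its group, 75.77 against at most 105.76. The median signal of all genes itself had r = 0.44 with Ifitm1 within groups (permutation p = 0.0797), a comparison added after the data were seen. Without isotype ISAC tumour 3 the interferon-gamma r became 0.66 (adjusted permutation p = 0.02).
In the neutrophil list 8 of 13 genes had a mean signal below 20. Over the 5 brighter genes, S100a8, Cxcr2, Csf3r, Fpr2 and the matrix protease Mmp9, r was 0.66, and it was 0.56 without the same 2 tumours and 0.57 with equal medians, both added after the data were seen. These 5 include genes bright enough only through the anti-rHER2 ISAC tumours, so the values are a description and no test is given.

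Setting Ifitm1 against a list mean within each tumour removes most of the scaling factor of the tumour. Part of it stays for genes near the floor, because 1 is added to each signal. Relative to the type I interferon-stimulated genes, the log2 ratio of Ifitm1 was -2.61 ± 0.33 in isotype antibody, -2.15 ± 0.56 in isotype ISAC, -1.90 ± 0.48 in anti-rHER2 and -0.52 ± 0.34 (SD, n = 5) in anti-rHER2 ISAC tumours. The anti-rHER2 ISAC tumours, from -0.88 to -0.01, did not overlap the others, of which the highest had -1.36. Ifitm1 was chosen for the largest rise of the interferon-linked genes between these tumours and the isotype antibody tumours. A higher ratio to the interferon lists there follows from that choice and supports nothing. Against the isotype antibody the ratio was higher by 2.09.
For interferon-gamma genes the shift in this ratio was 2.05, for monocyte genes 1.82 and for neutrophil genes 1.14. In the neutrophil ratio the lowest anti-rHER2 ISAC tumour, at 2.72, lay below the highest isotype ISAC tumour, at 2.73. The neutrophil shift turned to -0.71 when only the 5 brighter neutrophil genes entered the mean. These genes include some kept only for being bright in anti-rHER2 ISAC tumours, so this value is a description. Between anti-rHER2 and the isotype ISAC the ratios differed by 0.24, 0.23, -0.06 and 0.07 for the type I, interferon-gamma, neutrophil and monocyte lists (2-sided exact permutation p = 0.492, 0.611, 0.81 and 0.849, adjusted p = 0.849 for each).

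**Figure D5:**
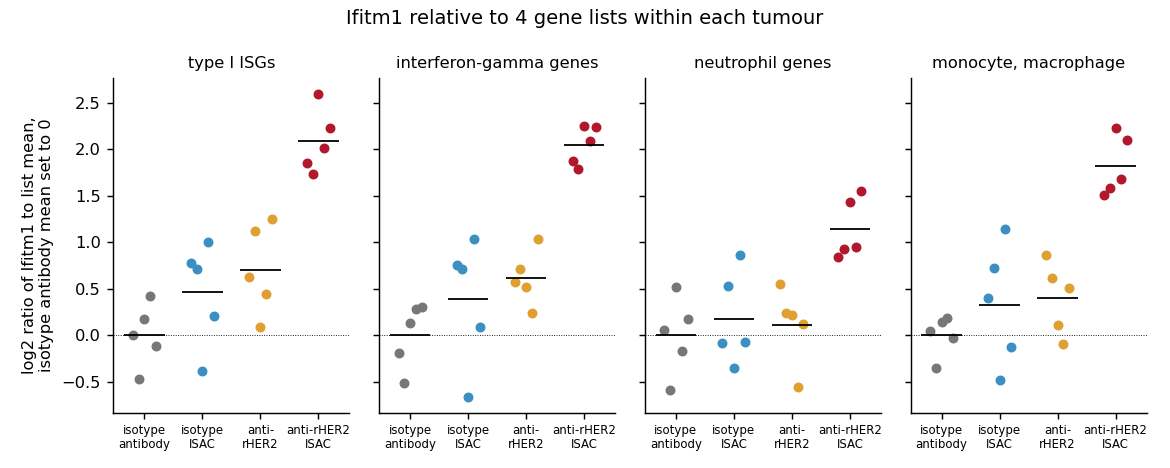
Log2 ratio of Ifitm1 to the mean of each of 4 gene lists in every tumour, with the isotype antibody mean set to 0; points are tumours and lines group means. The anti-rHER2 ISAC means stand at 2.09, 2.05, 1.14 and 1.82, and the isotype ISAC and anti-rHER2 tumours overlap in each panel. Ifitm1 was chosen for its rise in anti-rHER2 ISAC tumours, so these means are a description.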

How the data were processed

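Per the labels' protocols, MMC tumours were kept in RNAlater, total RNA was extracted with an RNeasy kit, and transcripts were measured with nCounter probes. The deposited table holds a normalized signal for 770 genes in 20 tumours, and the labels do not say how the authors normalized it. The reference genes had nearly equal means in all tumours, 8.71 to 8.76 in log2(signal + 1), as scaling to them would give. From the values, each tumour's signals were whole multiples of a step of 0.826 to 1.33 (100% within 0.02 of a count), found from the lowest values in 15 tumours and from a wider range in 5. Dividing by the step gave 271793 to 508433 counts per tumour, and 344 signals stood at the floor of 1. Intervals cover counting error only. No label gives a cartridge or run, and batches were therefore not tested.

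Groups came from the treatment label. The labels number the replicates without naming the mice, so p-values measure the spread between these samples, which may be technical. No 2 tumours held identical values, and within groups the lowest chi-square between the counts of 2 tumours was 4.59 times its degrees of freedom.

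The fit used limma 3.58.1 (R 4.3.3) on log2(signal + 1), with a mean per group over all 20 tumours, eBayes without a trend and 2-sided p-values adjusted by Benjamini-Hochberg over all genes. No gene was filtered. The threshold for a call was an adjusted p below 0.05, and "rose" or "fell" is used of called genes. Association with Ifitm1 was fitted with the group means in the model. Permutation tests used SciPy, and edgeR 4.0.16 was run on the recovered counts as an alternative. Other scalings, pseudocounts, filters, tumours left out and a replicate block were also tried. All fits were tested on simulated data.

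Ifitm1 and the gene lists were chosen with earlier results of these data known. Genes were named by a rule: the family, the 10 highest and 3 lowest correlations over tumours and within groups at a mean signal of at least 20, up to 4 called members of each list with the largest difference, and fixed genes whatever their values, of which S100a9 and Ly6g were not measured. Some genes that the rule names are not reported here. Promoter windows and gene order come from RefSeq GRCm38.p6, in which 754 of the 770 symbols are current. No probe position is printed, since the labels name no build.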

Additional observations from a re-analysis of the deposited data

Results flagged for a closer look

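Of 40 groups of 5 tumours examined over 10 values, 1 held a tumour far from the rest, and chance would flag about 1 in 20. In isotype antibody tumour 2 the log2(signal + 1) of Ifitm1 was 3.64, below the 4.48 to 4.75 of the other 4 tumours of its group. The gap to the nearest tumour was 0.753 of the group's range. The signal of 11.5 stands on 12 counts, with a 95% exact Poisson interval of 5.94 to 20.1. The part of counting error in this value was not tested.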

How the results depend on the processing

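Ifitm1 kept the direction of all 6 group differences under every scaling, the pseudocount of 10 and each tumour left out. The anti-rHER2 ISAC minus isotype antibody difference was 2.21 with equal medians, 2.31 with quantile normalization and 2.47 with a pseudocount of 10. The difference from the isotype ISAC was 1.81 and 1.96 with equal medians and quantile normalization, and the excess over the sum of both single differences was 1.09 with equal medians. Anti-rHER2 minus isotype ISAC ranged from 0.31 to 0.59 over 8 alternatives (limma or edgeR adjusted p 0.142 to 0.545) and from 0.44 to 0.76 with a tumour left out, never passing. The count of genes associated with Ifitm1 within groups was 0 with equal medians, median-ratio scaling, quantiles made equal, a pseudocount of 10 and the replicate block, 15 with the low-signal filter, and 0 to 15 with a tumour left out, with 0 to 1 negative. Of the 4 lists' 73 genes, 49 were called higher in anti-rHER2 ISAC against isotype antibody tumours, 19 with equal medians and 30 with quantile normalization. Over anti-rHER2 the count of 29 became 14, 19 after scaling by median ratios and 19 after quantile normalization, and was 16 to 33 with a tumour left out. It was 18, 16 and 17 without anti-rHER2 tumour 2 or anti-rHER2 ISAC tumours 1 and 3. Over the isotype ISAC 48 became 19 and 27. In anti-rHER2 over isotype antibody 10 became 4 and 4, and was 4 to 13 with a tumour left out. It was 5, 5 and 4 without isotype antibody tumour 2 or anti-rHER2 tumours 1 and 4. The monocyte r within groups turned to -0.05 with equal medians and -0.06 with quantile normalization. Restricting the neutrophil list to members of mean signal at least 20 gave r = 0.66, a ratio difference of -0.78 between anti-rHER2 and isotype ISAC, and -0.71 between anti-rHER2 ISAC and isotype antibody, on genes partly bright only through anti-rHER2 ISAC tumours, so these support nothing. The interferon-gamma r was 0.32 to 0.66 with a tumour left out. With a pseudocount of 10 the neutrophil and monocyte ratio differences between anti-rHER2 and isotype ISAC became 0.03 and -0.02, and with a tumour left out the interferon-gamma, neutrophil and monocyte differences were -0.04 to 0.39, -0.20 to 0.11 and -0.13 to 0.27. The cause of these changes was not tested. Replicate numbers did not pair tumours, since same-numbered pairs had a median r of deviations of 0.004 (-0.177 to 0.253) and others -0.011. With the replicate block the adjusted p of Ifitm1 in anti-rHER2 against isotype ISAC was 0.213 at a difference of 0.59. Levels of Ifitm1 in isotype antibody tumours rest on 12 to 23 counts, and their SD of 5.31 stands beside 4.71 from counting alone. In isotype ISAC and anti-rHER2 tumours the SDs of 10.4 and 10.1 stand beside 5.51 and 6.47.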

Other observations

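Genes of other cell types followed Ifitm1 less closely over the 20 tumours than shared myeloid genes did, as a description with no test. The median r was 0.68 for 8 endothelial genes, 0.61 for 7 fibroblast and matrix genes, 0.46 for 13 T cell genes, 0.37 for 12 NK and cytotoxic genes, 0.29 for 5 epithelial genes and 0.20 for 9 B cell genes, beside 0.39 for all genes. Over the 20 tumours the endothelial median lay above the 0.66 of interferon-gamma genes and the 0.55 of monocyte genes. The fibroblast median lay above that of monocyte genes. Within groups the endothelial and fibroblast medians were -0.08 and -0.15. Gzmb, the cytotoxic granule protease granzyme B, was the single gene of these lists among the 50 most like Ifitm1, at rank 43. Its list's summed signal was 466.0 to 841.4 in isotype antibody tumours and 1004.3 to 1808.7 in anti-rHER2 ISAC tumours, with 4 of 12 members called higher by limma, not above the 39.9% of the panel. Ncr1, the activating receptor NKp46 of NK cells, had means of 127.5 ± 34.0 and 138.6 ± 41.4 (limma adjusted p = 0.665), and Cd3e, a chain of the T cell receptor complex, 9.13 ± 3.62 and 13.8 ± 4.47 (limma adjusted p = 0.15). With equal medians the median of all genes turned from 0.39 to -0.30, and these lists were not recomputed under it.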
